A study of Mus musculus with 4 samples.

Results

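The genes described here are members of the cholesterol synthesis pathway that Visium-FFPE read out in brain sections of male offspring. They were chosen by symbol: the list names Hmgcs1, Idi1, Fdps, Fdft1, Sqle, Cyp51 and Insig1, and 6 of the 7 were found among the 19465 features, while Fdps, farnesyl diphosphate synthase, was not analysed here. In Visium-FFPE, pairs of probes bind RNA in a fixed tissue section, and their unique molecular identifiers (UMIs) are counted spot by spot on a barcoded array. A spot covers several cells. The question of the study was what an excess of folic acid (FA) in the mother's diet does to the brain of the offspring. The animals were wild-type C57BL/6J males at postnatal day 21. In the MF group, named median folate in the labels, the mothers had a diet with 2 mg/kg FA, and in the HF group a diet with 20 mg/kg FA, from before mating through pregnancy and lactation. Each group has 2 coronal sections from 2 tissue blocks, and the number of litters behind them is not given in the sources used here. P-values between the diets thus measure the spread between these 4 sections, which may share a litter. P-values between areas or classes of spots come from fits with section as a block. They measure the spread that is left after each section's own level is removed, within the same 4 sections.

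Nearly all cholesterol of the brain is made within the brain, because lipoproteins of the blood do not pass the blood-brain barrier. Synthesis runs from acetyl-CoA through mevalonate to squalene and then through lanosterol to cholesterol, and it is most active while oligodendrocytes wrap axons in myelin, a membrane rich in cholesterol. When sterol is scarce in the endoplasmic reticulum, the transcription factor SREBP2 is released and raises transcription of the enzymes, while Insig1 retains the SREBP escort SCAP when sterol is plentiful.

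Hmgcs1 (ENSMUSG00000093930, chromosome 13 from 119690379 to 119708260 of GRCm38, plus strand) encodes HMG-CoA synthase, which acts before mevalonate is formed. Idi1 (ENSMUSG00000058258, chromosome 13 from 8885501 to 8892451, plus strand) encodes isopentenyl diphosphate isomerase, which makes the isoprene units of the pathway. Fdft1 (ENSMUSG00000021273, chromosome 14 from 63145150 to 63179578, minus strand) encodes squalene synthase, the first enzyme committed to sterols. Sqle (ENSMUSG00000022351, chromosome 15 from 59315077 to 59331192, plus strand) encodes squalene epoxidase, which adds the oxygen needed for ring closure. Cyp51 (ENSMUSG00000001467, chromosome 5 from 4081145 to 4104746, minus strand) encodes lanosterol demethylase, which acts after ring closure. Insig1 (ENSMUSG00000045294, chromosome 5 from 28071363 to 28078662, plus strand) is no enzyme but the sterol sensor named above, and its own transcription is raised by SREBP.

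The promoters are shown because the 6 genes had their highest mean in the same area, among those compared below, and are known as targets of the same transcription factor. RefSeq starts on GRCm38.p6 were matched for 4 of the 7 genes, and the 250 bases before each start were searched on both strands for CCAAT, read by NF-Y, for GGGCGG, read by Sp1, and for TCACNCCAC, a sterol regulatory element read by SREBP. Matches are in capitals, and annotated exons were left out of what is printed. The stretches are chr13:119690101-119690350 on the plus strand for Hmgcs1, chr5:28071162-28071362 on the plus strand for Insig1 and chr5:4104747-4104947 on the minus strand for Cyp51.
Hmgcs1: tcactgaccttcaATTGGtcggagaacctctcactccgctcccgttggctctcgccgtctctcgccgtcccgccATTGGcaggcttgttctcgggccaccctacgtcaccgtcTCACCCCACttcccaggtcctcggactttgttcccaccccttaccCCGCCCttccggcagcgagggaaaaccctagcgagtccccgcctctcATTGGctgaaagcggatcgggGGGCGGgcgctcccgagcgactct
Insig1: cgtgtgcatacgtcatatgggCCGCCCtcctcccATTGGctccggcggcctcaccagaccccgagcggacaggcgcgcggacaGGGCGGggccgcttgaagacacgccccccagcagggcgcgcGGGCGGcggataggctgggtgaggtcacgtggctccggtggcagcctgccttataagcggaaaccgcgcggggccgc
Cyp51: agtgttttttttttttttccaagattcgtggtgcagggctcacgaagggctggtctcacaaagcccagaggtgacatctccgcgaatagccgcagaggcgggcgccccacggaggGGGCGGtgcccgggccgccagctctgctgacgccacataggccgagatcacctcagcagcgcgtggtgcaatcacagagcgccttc
The window of Hmgcs1 held 3 matches to CCAAT, 2 to GGGCGG and 1 to TCACNCCAC, which starts 137 bases before the RefSeq start on the strand of the gene. Insig1 held 1, 3 and 0 matches in the same order, and Cyp51 held 1, 1 and 0, its CCAAT lying 29 bases before the start in bases that are not printed. Idi1, for which nothing is printed because annotated exons cover the window, held 2, 1 and 0. Of 32851 promoters of this length, 33.8% held CCAAT, 32.7% held GGGCGG and 1.05% held TCACNCCAC, so that only the last of these is rare among genes. A match is a run of letters and not a measured binding site. Only 1 form of the sterol regulatory element was searched, so 0 matches does not show that it is absent.

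After removal of spots with under 500 UMIs or 250 genes, 13452 of 13470 spots were kept, with 34982061 to 90096877 UMIs per section. MF replicate 1 was the deepest, with a median of 23543.5 UMIs per spot against 9286 to 12074.5 in the other sections, so shares of spots with a UMI are given also after each spot was thinned to 5000 UMIs. Of the 23 clusters of spots, 19 took an area name from marker genes, and no gene of the pathway took part in the clustering. White matter had 179 to 252 spots per section, but only 3.28% of all UMIs in HF replicate 1 against 6.21% to 7.19% elsewhere. Sections shared 2647 to 3104 barcodes pairwise, which are positions of the array and not shared cells.

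Levels are given as CPM, the UMIs of a gene per 1000000 UMIs of the section or area. Probes differ in capture, so levels are compared between places and not between genes. Hmgcs1 gave the most UMIs, 12886 to 32417 per section, and had a UMI in 74.2% to 81.5% of the thinned spots (88.7% to 98.9% unthinned). Idi1 gave the fewest, 184 to 475 per section, with a UMI in 2.37% to 2.95% of the thinned spots (5.54% to 12.3%). Fdft1 lay between them with 1089 to 2998 UMIs and 14.2% to 15.2% (27.1% to 52.7%). The values of Idi1 therefore rest on few counts, and its differences are the least precise here.

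Among the areas compared, white matter had the highest mean level for each of the genes analysed. Over the whole section, Hmgcs1 was at 369 ± 27.2 CPM (SD, n = 4 sections), while in white matter it was at 1054 ± 218 CPM. Its white matter level was 884 and 1205 CPM in MF replicates 1 and 2 and 1275 and 850.1 CPM in HF replicates 1 and 2, and in cortex the same sections gave 268.7, 295, 269 and 261 CPM. The lowest white matter section thus lay far above the highest cortical one, while the order of the sections within white matter did not follow the diet. The fit across 13735 genes with edgeR's quasi-likelihood test set white matter against the mean of 6 other areas (cortex, hippocampus, thalamus, hypothalamus, striatum and medial habenula) and gave Hmgcs1 a log2 ratio of 1.75 (SE 0.05, adjusted p = 1.3e-27 after Benjamini-Hochberg), a fold of 3.37.

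Cyp51 followed closely. It was at 294.8, 355.4, 368.4 and 273.0 CPM in the white matter of MF replicates 1 and 2 and HF replicates 1 and 2, against 96.1, 104.5, 87.4 and 73.8 CPM in cortex. No white matter value came near a cortical one. Its log2 ratio of white matter to the other areas was 1.52 (SE 0.05, adjusted p = 2.4e-26 by edgeR). Sqle was at 250.6, 298.9, 216.9 and 285.4 CPM in white matter, and at 123.3, 126.6, 98.3 and 134.8 CPM in cortex, with HF replicate 1 lowest in both places. Its log2 ratio was 1.09 (SE 0.06, adjusted p = 1.3e-18 by edgeR).

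The smaller ratios belonged to the squalene synthase, the isomerase and the sensor. Insig1 was at 171.8, 175.6, 182.0 and 152.2 CPM in white matter and at 92.2, 89.9, 83.0 and 78.1 CPM in cortex, with a log2 ratio of white matter to the other areas of 0.79 (SE 0.05, adjusted p = 5.6e-16 by edgeR). Fdft1 had 45.0, 48.2, 58.4 and 48.1 CPM in white matter and 30.2, 27.1, 28.3 and 30.7 CPM in cortex. For Fdft1 the log2 ratio was 0.73 (SE 0.07, adjusted p = 8.5e-11 by edgeR). Groups of values did not overlap for either gene. Idi1 had 6.94, 7.97, 9.58 and 7.53 CPM in white matter against 5.37, 5.81, 5.49 and 6.01 CPM in cortex. Its log2 ratio of 0.66 (SE 0.18, adjusted p = 0.0017 by edgeR) was no longer called after thinning, at 0.34 with an adjusted p of 0.52.

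Thus 6 of 6 tested members were called higher in white matter, where 21.9% of all genes tested were called higher and 20.3% lower (adjusted p under 0.05 and at least 1.2-fold). The median log2 ratio was 0.94 over the members and -0.01 over all genes tested. In single sections, the ratio of white matter to the mean of the other areas ran from 2.63 to 3.75 for Hmgcs1, from 2.35 to 2.96 for Cyp51, from 1.72 to 2.15 for Sqle, from 1.45 to 1.92 for Insig1, from 1.34 to 1.93 for Fdft1 and from 1.43 to 1.80 for Idi1. White matter was the highest of the 7 areas in 4 of 4 sections for each member but Idi1, where it was highest in 3. In an area of spots, more cells of a type and more RNA per cell cannot be told apart. White matter was named from genes of myelin, which were 2.32 higher there in the median on the log2 scale, a larger step than that of any member, and neuronal markers had a median log2 ratio of -0.59. These 2 values describe what the clustering used.

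**Figure D1:**
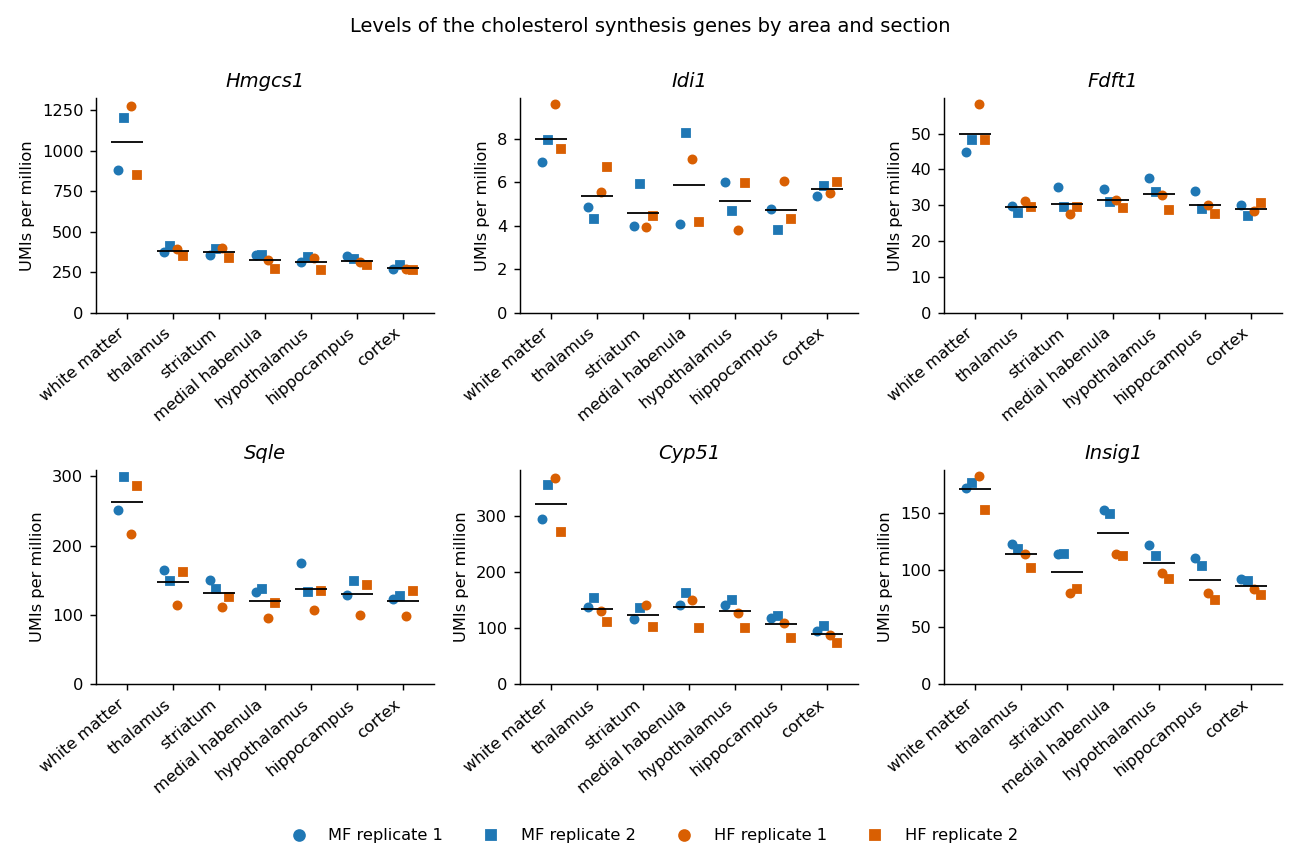
Level in CPM (UMIs per 1000000, axes from 0) of each of the 6 genes in white matter and the other areas, with 1 point per section, MF blue and HF orange, and a line at the mean of 4 sections. White matter has the highest mean for all 6 genes, with Hmgcs1 at 850.1 to 1275 CPM there and at 261 to 295 CPM in cortex.

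White matter spots carried a larger share of these transcripts than of all UMIs, though most of the transcripts lay elsewhere. White matter made up 5.60% to 7.54% of the spots and 3.28% to 7.19% of all UMIs. It held 15.3%, 18.5%, 11.4% and 17.9% of the UMIs of Hmgcs1 in MF replicates 1 and 2 and HF replicates 1 and 2, and 13.9%, 14.8%, 9.63% and 18.0% of those of Cyp51. For Idi1 the share was 5.98% to 9.63%, and for Insig1 5.94% to 11.8%. The lowest share was that of HF replicate 1 for each gene, the section where white matter also had the lowest share of all UMIs. Summed over the 6 genes, the median white matter spot had 1583, 1848, 2062 and 1512 CPM in the order of sections above, and the median spot elsewhere 717, 726, 628 and 619 CPM.

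**Figure D2:**
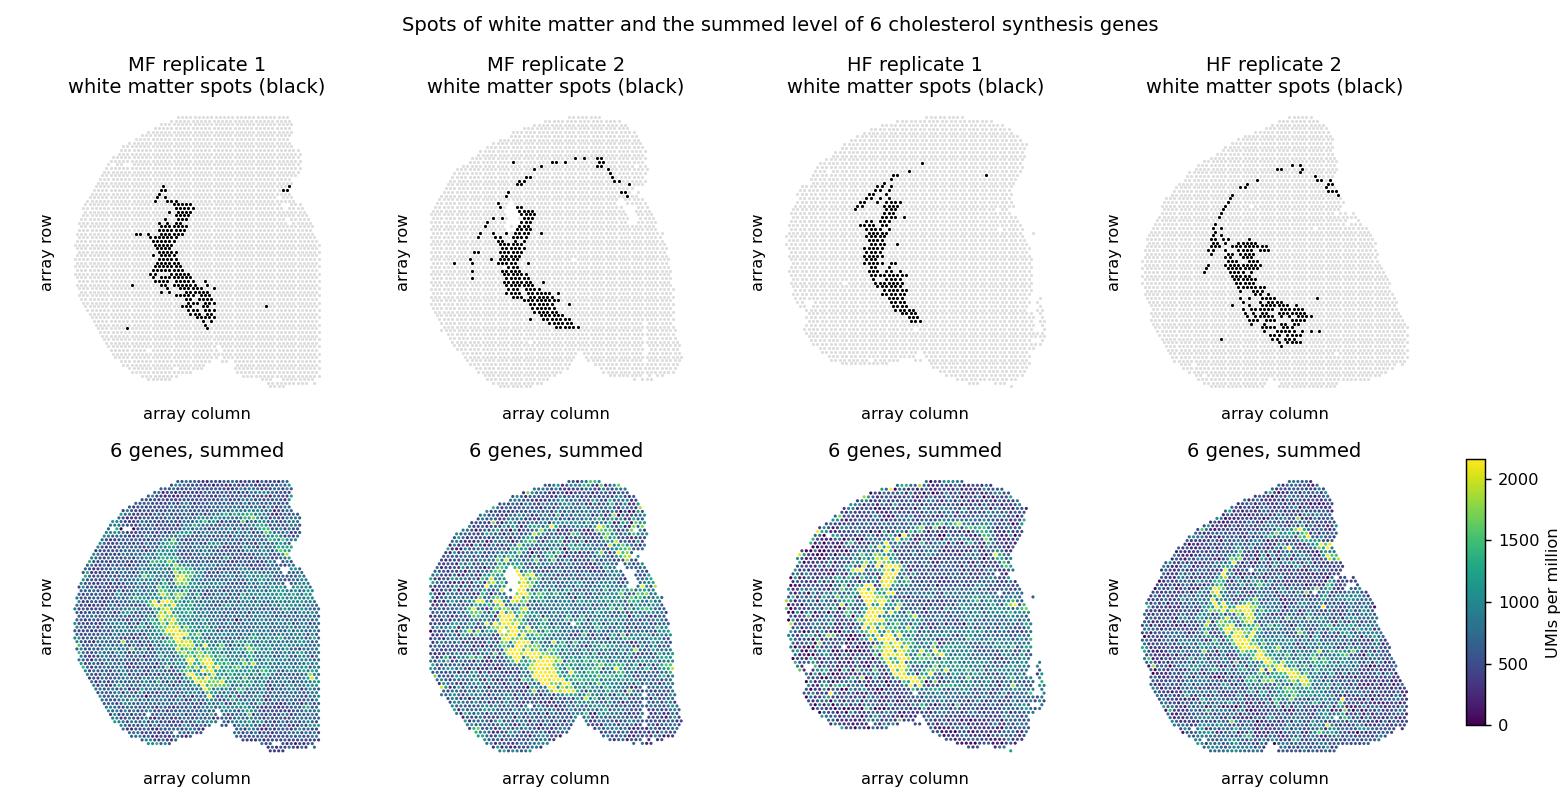
Spots of the 4 sections at their array row and column, with white matter spots in black (upper row) and the summed level of the 6 genes in CPM as colour (lower row), on a scale that ends at 2157 CPM, the 98th percentile. The brightest spots form a band where the white matter spots lie, with medians of 1512 to 2062 CPM against 619 to 726 CPM elsewhere, and a thin upper arc of white matter spots is seen mainly in MF replicate 2 and HF replicate 2.

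Outside white matter the levels were closer together, and their order was not the same for all genes. For Hmgcs1 the order of the means was thalamus (383 CPM), striatum (373), medial habenula (328), hippocampus (322), hypothalamus (315) and cortex (273). Thalamus and striatum did not differ in the fit, nor did medial habenula and hippocampus. Hypothalamus and cortex did not differ either (log2 difference 0.03, adjusted p = 0.76 by edgeR). Striatum against medial habenula and hippocampus against hypothalamus differed. The means of Cyp51 and Insig1 shared another order, in which medial habenula followed white matter and then came thalamus, hypothalamus, striatum, hippocampus and cortex. Outside white matter, thalamus against hypothalamus differed in the fit for both genes, and hippocampus against cortex for Cyp51 alone. No other neighbours among these areas differed for either gene. Insig1 in medial habenula was at 152.4, 148.6, 114 and 112.5 CPM (mean 131.9), against 85.8 CPM in cortex.

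Sqle had its lowest means in cortex and medial habenula, 120.7 CPM in each, after thalamus, hypothalamus, striatum and hippocampus. Its neighbours in that order differed in the fit for white matter against thalamus and thalamus against hypothalamus, and in no other step. Of the 15 pairs of areas without white matter, 9 differed for Hmgcs1, 9 for Insig1, 8 for Cyp51, 4 for Sqle and 0 for Fdft1 and Idi1. The largest log2 difference among these pairs was 0.54 for Cyp51 and 0.10 for Fdft1, the gene with the flattest profile. White matter differed from the next area for 5 of the members, and for Idi1 it did not pass (adjusted p = 0.071 by edgeR).

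Within the areas, the clusters showed a finer grain. In hippocampus, Cyp51 was at 53.1 ± 21.5 CPM (SD, n = 4) over the CA1 cell layer, at 65.8 CPM over CA2-3, at 93.0 CPM over the dentate gyrus and at 149 ± 21.7 CPM in the neuropil between the cell layers. Hmgcs1 was at 226 CPM over CA1, 295 CPM over CA2-3, 214 CPM over the dentate gyrus and 440 ± 6.32 CPM in the neuropil. The neuropil thus lay above the cell layers for both genes, while the order of the cell layers was not the same. In cortex, Hmgcs1 was at 211 CPM in layers 2-3 and at 256 CPM in layer 5. It was at 334 CPM in a cluster led by Trbc2 and Nxph3, with Ccn2, Cplx3 and Tbr1, genes of deep layers, among its leading genes. The remaining cortical cluster, led by Lypd1, was at 296 CPM.

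Outside white matter, the highest cluster for Hmgcs1 was the ependyma, the ciliated lining of the ventricles, at 680 ± 90.0 CPM over 45 spots, with Cyp51 at 215 CPM. Fdft1 was at 57.2 ± 10.9 CPM there, above its mean of 49.9 CPM in white matter. The choroid plexus, a secretory epithelium in the same ventricles, was at 240 CPM for Hmgcs1. Next came an unnamed cluster of 240 spots whose leading genes were Six3 and Pvalb, at 597 CPM. Both stood high in myelin genes too: over 22 clusters the Pearson correlation of a gene's log2 level with that of the summed myelin list was 0.948 for Cyp51, 0.939 for Hmgcs1, 0.882 for Insig1, 0.858 for Sqle, 0.747 for Fdft1 and 0.076 for Idi1. Without white matter it was 0.929 for Cyp51 and 0.924 for Hmgcs1 over 21 clusters. Clusters share libraries and depth, so these correlations are a description.

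To look at the relation to myelin without area names, the spots of each section were ranked by their share of UMIs from 18 genes of mature oligodendrocytes and cut into 5 classes of equal number. Hmgcs1 rose over the classes from 225 through 263, 304 and 365 to 691 CPM (means of 4 sections), and Cyp51 from 77.7 through 99.4, 114 and 135 to 221 CPM. Sqle went from 107 to 197 CPM and Insig1 from 76.8 to 142 CPM, each in steps of one direction. Fdft1 stayed between 27.7 and 31.6 CPM over the lower 4 classes and reached 39.8 CPM in the highest. Idi1 was at 5.28 CPM in the lowest class and at 6.48 CPM in the highest.

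Between the highest and the lowest class of myelin share, edgeR gave log2 ratios of 1.66 for Hmgcs1 (SE 0.05, adjusted p = 1.3e-16), 1.56 for Cyp51 (SE 0.05, adjusted p = 1.9e-16), 0.93 for Sqle and Insig1, 0.56 for Fdft1 and 0.34 for Idi1. All 6 were called higher, against 24.4% of all genes tested called higher and 21.7% lower. The call of Idi1 was narrow (adjusted p = 0.036 by edgeR) and was lost after thinning (adjusted p = 0.62) and without MF replicate 1, MF replicate 2 or HF replicate 2. The means of Hmgcs1 and Cyp51 were thus higher in each class than in the one before, whereas those of Fdft1 and Idi1 were not.

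**Figure D3:**
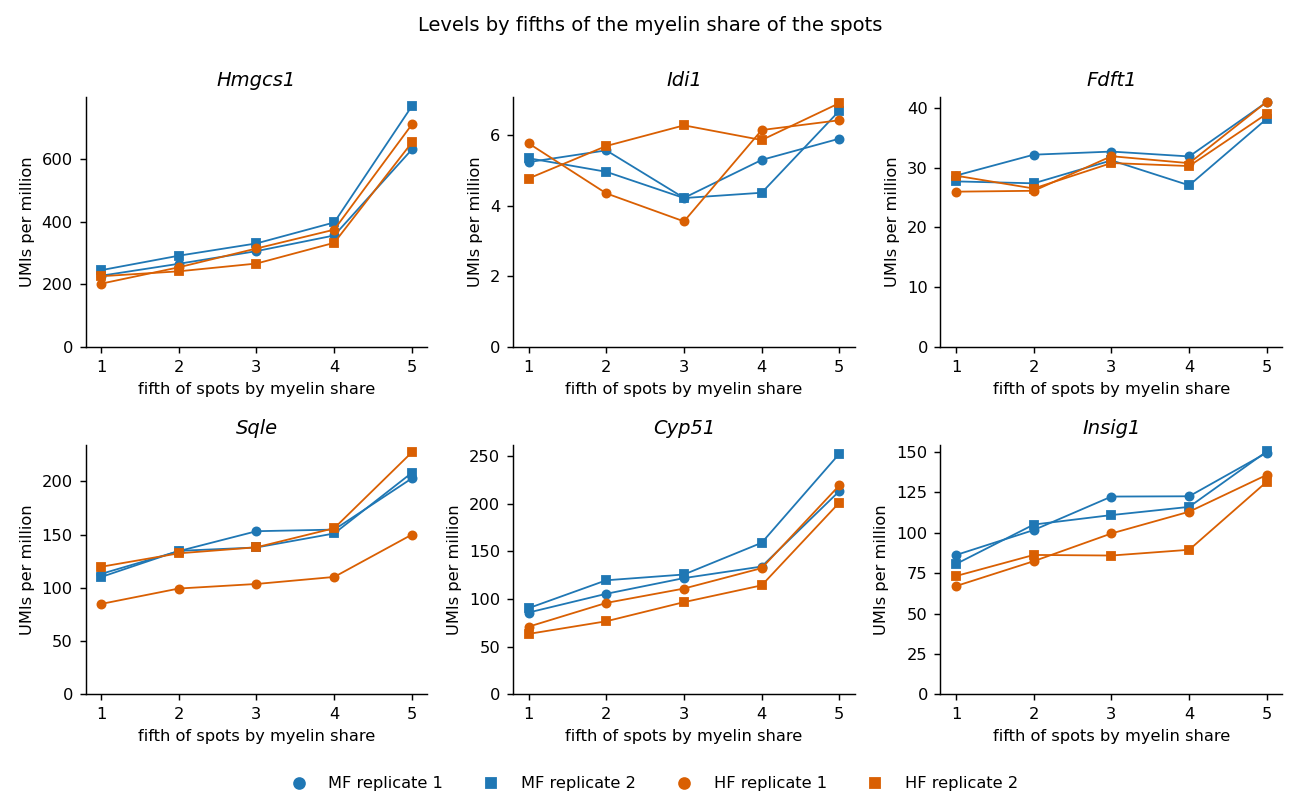
Level in CPM (UMIs per 1000000) of each gene in the 5 classes of spots from the lowest (1) to the highest (5) share of myelin transcripts, with 1 line per section, MF blue and HF orange. Hmgcs1 climbs from a mean of 225 to 691 CPM, and the HF lines of Insig1 lie under both MF lines in 5 of 5 classes, which come from the same sections.

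Cortical spots next to white matter were also compared with the rest of cortex, since a spot there can take in white matter. The classes of distance were not matched for cortical layer, so distance and layer cannot be told apart. Hmgcs1 was at 349.8, 423.4, 454.7 and 355.5 CPM 1 step from white matter in MF replicates 1 and 2 and HF replicates 1 and 2, and at 266.5, 283.0, 259.0 and 255.2 CPM 3 or more steps away. At 2 steps its values were 304.3 to 406.7 CPM, with a mean of 352 CPM against means of 396 CPM at 1 step and 265.9 CPM at 3 or more. The first step held 8 to 42 spots per section. Its log2 ratio against 3 or more steps was 0.59 (SE 0.09, adjusted p = 1.5e-06 by edgeR), that of Cyp51 was 0.48 (adjusted p = 0.031) and that of Sqle 0.42 (adjusted p = 0.027). Of 5 members tested 3 were called higher, where 3.76% of all genes tested were called higher and 2.69% lower, while Fdft1 (0.58, adjusted p = 0.12) and Insig1 (0.04, adjusted p = 0.96) were not. The calls of Cyp51 and Sqle were lost without HF replicate 1 or HF replicate 2, which left 1 call, that of Hmgcs1, and that of Sqle also without MF replicate 1. After thinning or with no filter on low counts Hmgcs1 alone was called too, and Insig1 was at -0.24 when thinned.

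As a measure that used no cluster, Moran's I of Space Ranger scores how alike neighbouring spots are, with 0 for no pattern. It was 0.278 to 0.361 for Hmgcs1 over the 4 sections, which ranked 249 to 376 among all features, and 0.136 to 0.162 for Cyp51. Insig1 had 0.0662 to 0.0886, Sqle 0.0470 to 0.132 and Fdft1 0.00642 to 0.0281. Idi1, with -0.00600 to 0.00308, lay under the median feature (0.0104 to 0.0166) in each section.

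The rest of the pathway was read from a list of 16 other enzymes of the route from acetyl-CoA to cholesterol, of which 15 were tested. In white matter 14 of the 15 were called higher, with a median log2 ratio of 1.05. The largest ratio was that of Lss, lanosterol synthase (1.63), and the smallest called one that of Pmvk, phosphomevalonate kinase (0.57). Ggps1, geranylgeranyl diphosphate synthase, which leads away from sterols, was not called (-0.13, adjusted p = 0.16 by edgeR). Enzymes before and after squalene were thus both higher, and the branch enzyme differed from them in its value.

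Genes that sense and take up sterol did not move as a group. Of 9 tested, 4 were called higher and 1 lower, with a median log2 ratio of 0.13. Stard4, a sterol carrier, had a log2 ratio of 0.51, and the transcription factors Srebf1 and Srebf2 had 0.34 and 0.28. Insig2, the paralogue of Insig1, was lower in white matter, with a log2 ratio of -0.36 (adjusted p = 1.2e-06 by edgeR), opposite to Insig1. With the 10% of spots highest in myelin share taken as white matter it was -0.21 and no longer called, and between the highest and lowest class of myelin share it was -0.08 (adjusted p = 0.11 by edgeR). Mylip, a ubiquitin ligase, was not called (-0.20).

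Of 12 genes of cholesterol transport and turnover, 5 were called higher and 1 lower, with a median of 0.22. Npc2 and Npc1, which pass sterol out of lysosomes, had log2 ratios of 1.55 and 1.40. Cyp46a1, the neuronal hydroxylase through which brain cholesterol is turned over, was lower at -0.47. Lrp1, a lipoprotein receptor, was not called (-0.17).

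**Figure D4:**
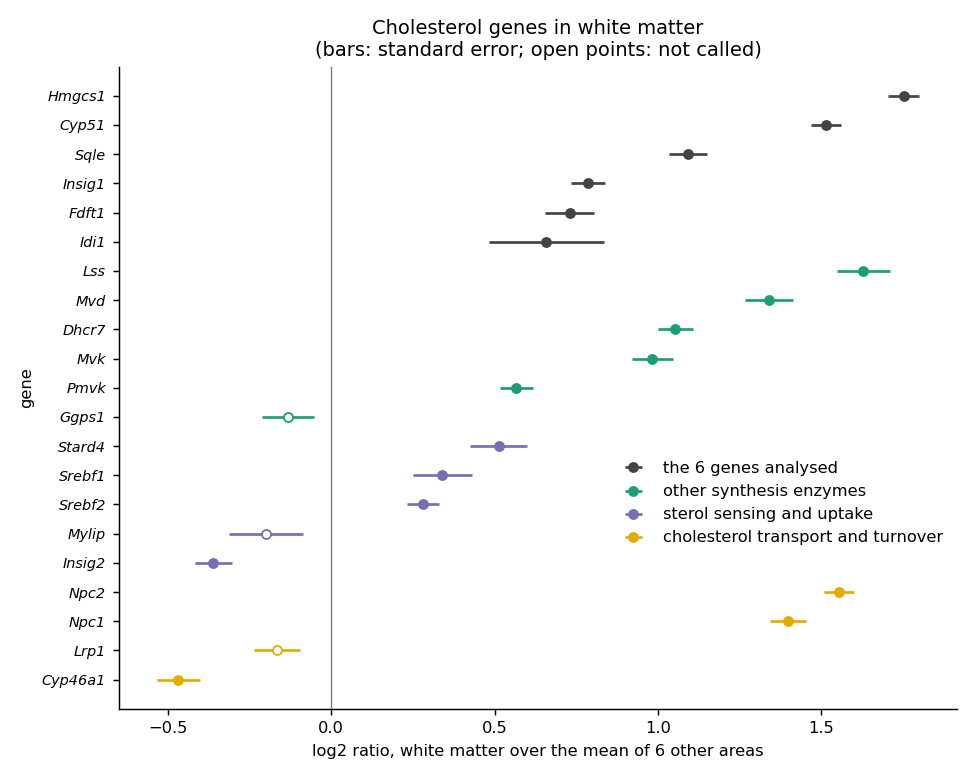
Log2 ratio of white matter to the mean of the other areas (edgeR, bars of 1 SE) for the 6 genes and for the named genes of synthesis, of sterol sensing and of transport and turnover, with filled points for called genes. The enzymes shown lie to the right of 0 except Ggps1 (-0.13), while Insig2 (-0.36) and Cyp46a1 (-0.47) lie to the left.

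Outside all lists, genes were ranked by how their log2 level over 28 points (7 areas in 4 sections) followed the mean of the 6 members. Among 13726 genes, the nearest were Srd5a1, a steroid reductase (r = 0.965), Pcyt2, an enzyme of phosphatidylethanolamine synthesis (0.963), Slc22a23 (0.961), Nfasc, an adhesion molecule of axons and glia (0.958), and Cryab, a small heat shock protein (0.957). Golga7, Gatm, Tmem141, Necap2 and Rab31 followed with 0.952 to 0.956. Each of these 10 had its own log2 ratio in white matter, from 0.83 for Necap2 to 2.01 for Cryab. Of the lists, Mvk (0.958), Dhcr7 (0.954) and Mvd (0.951) came closest. Between pairs of members the correlation over the same points ran from 0.551 to 0.955 over 15 pairs. The points share libraries, and white matter makes up 4 of them.

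For the diets, Insig1 and Cyp51 had lower levels in HF over the whole section, but no member was called. Insig1 was at 116.1 and 111.9 CPM in MF and at 100.6 and 92.7 CPM in HF, and Cyp51 at 132.6 and 148.9 CPM in MF and at 125.6 and 108.9 CPM in HF. For both genes the HF sections lay under both MF sections. The log2 ratio of HF to MF was -0.25 for Insig1 (95% interval -0.43 to -0.07, adjusted p = 0.70 by edgeR) and -0.27 for Cyp51 (95% interval -0.51 to -0.03, adjusted p = 0.70 by edgeR). An exact test on 2 sections against 2 cannot reach p = 0.05 for any one gene, and these p-values rest on a spread shared across genes.

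The other members overlapped between the diets. Hmgcs1 was at 359.8 and 405.7 CPM in MF and at 368.4 and 341.0 CPM in HF (log2 ratio -0.12). Sqle was at 151.6 and 147.9 CPM in MF and at 109.4 and 153.7 CPM in HF (-0.19), so that its ratio came from HF replicate 1 and was 0.04 without that section. Fdft1 was at 33.3 and 30.2 against 31.1 and 31.0 CPM (-0.04), and Idi1 at 5.27 and 5.14 against 5.26 and 5.86 CPM (0.09). The percentage of all genes called in either direction was 0% over the whole section, where 1020 of 14971 genes had an unadjusted p under 0.05, Insig1 and Cyp51 among them. DESeq2 called no member. Of the members 2 were lower in HF without overlap and 0 higher, where 17.9% of all genes tested were lower without overlap and 21.8% higher.

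Depth and white matter differed between these sections, and leaving out HF replicate 1, the section with the least white matter RNA, changed the values. Without it the log2 ratio of HF to MF was -0.30 for Insig1 and -0.36 for Cyp51. Without HF replicate 2 these were -0.21 and -0.19, and Sqle was at -0.48. Over the whole section, members were called only in fits that left out an HF section, which assume that 1 HF section varies like the MF sections. Myelin moved the same way, since the 18 myelin genes summed to 28042 and 29252 CPM in MF and to 23095 and 25027 CPM in HF, 0.840 of the MF mean. The part of myelin content in the lower values of Insig1 and Cyp51 was not tested in one model.

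By area, 8 comparisons of HF with MF gave the same result: no member was called in white matter (0.0248% of all genes called in either direction), cortex (0.0666%), hippocampus (0.0633%), striatum (0.0811%), thalamus (0%), hypothalamus (0%), the ventricular system (0.824%) or outside white matter as a whole (0%). Counting the whole section, 12 of 52 tests of members had an unadjusted p under 0.05, each of them for Insig1 or Cyp51 with HF lower, and DESeq2 called 0. Among all genes tested, such a p was found for 1083 of 13505 in cortex, 1239 of 12645 in hippocampus and 963 of 13416 in thalamus. It was found for 945 of 13476 in hypothalamus, 762 of 11101 in striatum and 1152 of 9227 in the ventricular system. In white matter it was found for 645 of 12090, and outside white matter for 1007 of 14911. The areas come from the same 4 sections and are not independent of each other.

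In white matter itself the diets overlapped for all 6 genes, and the values do not bound the difference tightly. Hmgcs1 had a log2 ratio of 0.01 (95% interval -0.41 to 0.42), Cyp51 -0.05 (-0.39 to 0.30), Insig1 -0.09 (-0.39 to 0.21), Sqle -0.12 (-0.45 to 0.20), Fdft1 0.15 (-0.20 to 0.49) and Idi1 0.14 (-0.59 to 0.87). The sections nearest to each other were MF replicate 2 and HF replicate 1 on one side and MF replicate 1 and HF replicate 2 on the other, for Hmgcs1 and Cyp51. The myelin genes summed to 98720 and 116497 CPM in MF and to 113915 and 91927 CPM in HF, in the same division.

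In hippocampus Insig1 came nearest to a call. It was at 110.1 and 103.3 CPM in MF and at 79.8 and 73.3 CPM in HF, with a log2 ratio of -0.48 (SE 0.10, 95% interval -0.69 to -0.26, adjusted p = 0.11 by edgeR). Both HF sections lay well under both MF sections. Insig1 was called with no filter on low counts (adjusted p = 0.0040 by edgeR), a fit for which the share of all genes called is not given here. Fits that left out an HF section called it too, but they leave 1 section in that group. Cyp51 was at 119.3 and 121.6 CPM in MF and at 109.1 and 82.5 CPM in HF (-0.33, adjusted p = 0.39 by edgeR), and Hmgcs1 at 348.2 and 333.9 against 311.2 and 293.5 CPM (-0.17, adjusted p = 0.56 by edgeR). In hippocampus 3 members were lower in HF without overlap, where 21.3% of all genes tested were. There the myelin genes summed to 27138 and 23991 CPM in MF and to 18811 and 17550 CPM in HF, 0.711 of the MF mean and lower in both HF sections. Markers of vessels and meninges were lower there too, with 9 of 9 under 0, a median log2 ratio of -0.53 and none called. They summed to 327 and 340.2 CPM in MF and to 310.4 and 215 CPM in HF, whereas over the whole section they overlapped between the diets. The part of either list in the values of Insig1, Cyp51 and Hmgcs1 was not tested.

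Over the areas, Insig1 was the member with the most uniform order of the diets. HF lay under MF without overlap in 7 of the 8 named areas for Insig1, white matter being the exception, in 4 for Cyp51, 3 for Sqle, 2 for Hmgcs1, 1 for Fdft1 and 0 for Idi1, which was higher in HF in 1. Medial habenula had no test between the diets and no share of all genes, and the areas come from the same sections. In striatum Insig1 had 113.9 and 113.9 CPM in MF against 80.1 and 83.5 CPM in HF (-0.47, adjusted p = 0.42 by edgeR). In medial habenula it had 152.4 and 148.6 against 114 and 112.5 CPM. In the 19 to 27 spots of the ventricular system its log2 ratio was -0.59 (95% interval -1.01 to -0.17, adjusted p = 0.17 by edgeR). There 11 of 11 neuronal markers had a ratio under 0 (median -0.57, 3 called lower), as had 16 of 17 myelin genes (3 called lower), while 8 of 8 markers of vessels and meninges lay above 0, and their part in the value of Insig1 was not tested. The choroid plexus alone had 10 to 14 spots per section. Insig1 there was at 116.1 and 142.2 CPM in MF against 66.7 and 71.5 CPM in HF, lower without overlap. The share of all genes lower without overlap in the choroid plexus is not given here. In the ependyma alone, with 8 to 14 spots per section, Insig1 overlapped between the diets. Hmgcs1 was there at 609.9 and 598 CPM in MF against 733 and 779 CPM in HF. It was higher in HF without overlap, as were Sqle and Cyp51. The share of all genes higher without overlap in the ependyma is not given here. Over the whole ventricular system it was 14.6%.

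Cyp51 was lower in HF without overlap in cortex, with 96.1 and 104.5 CPM in MF against 87.4 and 73.8 CPM in HF (-0.30, adjusted p = 0.49 by edgeR). In hypothalamus it was at 141.8 and 151.1 against 127.6 and 100.4 CPM (-0.38, adjusted p = 0.71 by edgeR). The clusters of hypothalamus were unevenly shared: the one led by Avp and Oxt had 3 and 33 spots in MF and 106 and 98 in HF. In the largest hypothalamic cluster, led by Pmch and Hcrt, Cyp51 overlapped between the diets. Its overlap in striatum came from HF replicate 1, which at 141.8 CPM lay above both MF sections, while HF replicate 2 at 102.3 CPM lay below them. Cyp51 was thus lower in HF replicate 2 than in HF replicate 1 in each of these areas.

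Beside the count for the whole section, the share of all genes tested that was lower in HF without overlap was 17.6% outside white matter (members 2 of 6), 15.5% in white matter (0 of 6), 21.1% in cortex (2 of 6, while 16.7% of genes were higher and 0 members), 17.9% in thalamus (2 of 6, while 20.4% of genes were higher and 1 member), 17.1% in hypothalamus (3 of 6), 17.2% in striatum (2 of 5) and 28.8% in the ventricular system (2 of 5). Shares of the members rest on 5 or 6 genes.

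The same classes of myelin share were then set side by side between the diets, with values only. The classes were cut within each section and are not matched: their median myelin share in HF was 0.62, 0.74, 0.83, 0.90 and 0.91 of that in MF from the lowest to the highest class. For Insig1 the ratio of the HF mean to the MF mean was 0.84, 0.82, 0.79, 0.85 and 0.89 in the same order, with HF lower without overlap in 5 of 5. In the lowest class its sections were at 86.2 and 80.6 CPM in MF and at 67.0 and 73.2 CPM in HF. For Cyp51 the ratio was 0.76, 0.77, 0.84, 0.84 and 0.90, and HF was lower without overlap in the lower 4 classes. For Hmgcs1 it was 0.91, 0.89, 0.91, 0.94 and 0.97, with 2 of 5 apart. The classes come from the same sections, and the share of all genes without overlap in them is not given here. The ratio of Cyp51 was lowest in the classes where HF also had the lowest myelin share relative to MF. The part of that difference in these ratios was not tested.

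A test of whether the diet ratio differs between areas, with section as a block in edgeR, called no member. The adjusted p was 0.35 for Insig1, 0.62 for Cyp51 and 0.75 to 0.97 for the other members, while 0.0646% of all genes tested were called. A difference between white matter, where the diets overlapped for Insig1, and the areas where they did not is thus not shown.

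**Figure D5:**
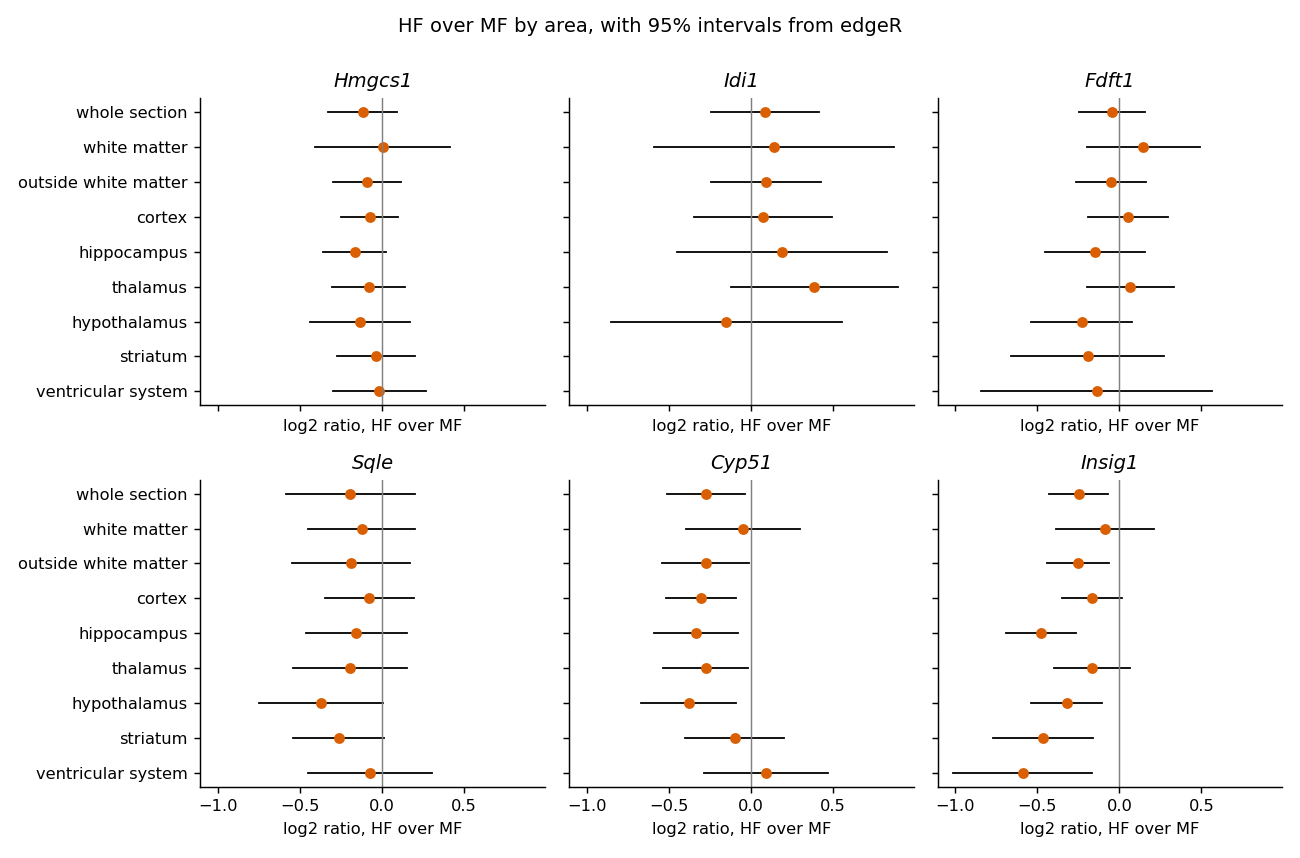
Log2 ratio of HF to MF (edgeR, bars of the 95% interval) for each gene over the whole section and in each area. Insig1 lies under 0 in each of them, from -0.59 in the ventricular system to -0.09 in white matter, and no adjusted p of a member is under 0.05.

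The remaining enzymes of the pathway gave no call between the diets. Over the whole section 13 of the 15 other enzymes had a log2 ratio under 0, with a median of -0.13 and a lowest value of -0.30, and 0 of 15 were called. Over all genes tested, 49.4% had a ratio under 0. In hippocampus the median was -0.20, again with 13 of 15 under 0 and 0 called. For sterol sensing and uptake the median was -0.06, and for transport and turnover -0.03, with 0 genes called in both lists.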

How the data were processed

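Visium-FFPE sections of 4 brains were analysed, 2 from MF and 2 from HF, grouped by the labels. The authors ran Space Ranger (2.0.0 in the file headers) on mm10 and deposited raw UMI counts of 19465 features per spot, without normalization. Also deposited, per the file headers, were Moran's I as a score per feature, with a p-value and a signal (mean scaled count), of which the score alone was used here. Positions of genes are from GENCODE vM21.

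The study's limits of 500 UMIs and 250 genes per spot were kept, which left 34982061 to 90096877 UMIs per section. Spots were clustered with 2000 variable genes, 30 principal components, 20 neighbours and Leiden resolution 1 (scikit-learn 1.9.0, igraph 0.11.9, leidenalg 0.10.2). Kept out were 66 genes, namely the members, the pathway lists, immediate early genes and sex-linked genes. Mitochondrial genes were kept out as well and are not in that count. A cluster took an area name from at least 3 markers among its 50 leading genes, and 4 of 23 stayed unnamed; the study named its clusters by hand, so areas may differ from it. Doublets do not apply to spots. UMIs were summed per section and area, and tested with edgeR 4.0.16 (quasi-likelihood, TMM, filterByExpr; R 4.3.3) with section as a block between areas. Calls needed a Benjamini-Hochberg adjusted p under 0.05 over all genes tested and at least 1.2-fold. Diet fits used the 4 sections, and an area entered the fits between areas with 20 spots or more per section. Alternatives were DESeq2 1.42.0, library size alone, no filter, a replicate block, thinning to 5000 UMIs per spot (12710 of 13452 spots), the rank sum test over single spots that the study used, Leiden resolution 0.5, the 10% of spots with the highest myelin share as white matter, and each section left out. The methods were tested on simulated data.

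Members and gene lists were chosen with earlier results of these data known. Named beside the members were, of each pathway list, the 2 genes with the highest and the 2 with the lowest white matter ratio, and outside the lists the 10 genes most like the members; Srebf1, Srebf2, Mvk, Dhcr7 and Mvd were named after their values were seen. Some genes that this rule names are not reported here.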

Additional observations from a re-analysis of the deposited data

Results flagged for a closer look

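Egr1, an immediate early gene that neurons switch on with activity and no member of the pathway, had a diet ratio that differed between areas by edgeR's test of diet by area (adjusted p = 0.0291), with log2 ratios of HF to MF of 2.48 in cortex, 2.41 in hippocampus, 2.06 in white matter, 2.05 in striatum, 1.78 in hypothalamus and 1.77 in thalamus. Within single areas it was not called in hypothalamus (adjusted p = 0.71 by edgeR) or thalamus (adjusted p = 0.16 by edgeR).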

How the results depend on the processing

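The white matter calls of all members but Idi1 were kept under each alternative, and the number of members with their highest mean in white matter, among the areas compared, stayed at 6. The calls of Idi1 (thinning for white matter; thinning, library size alone and no filter for myelin share) and of Cyp51 and Sqle beside white matter were lost, as were in white matter those of Insig2 (10% of spots with the highest myelin share) and Stard4 (thinning). Depth limits Idi1 most, with 184 to 475 UMIs per section.

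Beside white matter, 1 member was called after thinning or with no filter and 5 at Leiden resolution 0.5, and 1 to 3 with a section left out. Insig1 there had -0.24 thinned, -0.0178 with no filter and -0.10 to 0.14 with a section left out. Mylip had 0.0301 in white matter when thinned. For myelin share, library size alone gave a median of 0.88.

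Between the diets, the rank sum over single spots called 1 member in cortex, 2 in hippocampus, 3 in hypothalamus, 2 outside white matter and 1 in thalamus, and after thinning 1 in hypothalamus and 1 outside white matter; spots are not replicates. No filter called 1 in hippocampus. For the rank sum and for no filter the share of all genes called is not given here, so these counts cannot be read against it. With a section left out, members were called over the whole section, outside white matter and in hippocampus, hypothalamus, cortex and thalamus, each time without an HF section. Such fits leave 1 HF section, and the share of all genes called in them is not given here, so their counts are left out. Median log2 ratios of the members by rank sum were -0.13 over the whole section, -0.11 in cortex, -0.14 in striatum and 0.16 in the ventricular system, and thinned -0.0800 in hippocampus and 0.11 in the ventricular system. Thinned sums gave -0.11 in hippocampus and 0.28 in the ventricular system, and Leiden resolution 0.5 -0.28 in the latter. Leaving out a section gave medians of -0.19 to -0.10 (whole section), -0.12 to 0.00644 (cortex), -0.17 to -0.10 (outside white matter), -0.28 to -0.19 (striatum), -0.13 to -0.0473 (thalamus), -0.15 to 0.0556 (ventricular system) and -0.15 to 0.24 (white matter). Single genes that turned sign were, over the whole section, Sqle (-0.48 to 0.0409), Fdft1 (-0.11 to 0.0331) and Idi1 (-0.0118 to 0.17), and in hippocampus Sqle (-0.45 to 0.0821, and 0.00404 by rank sum thinned) and Idi1 (-0.0414 to 0.44). The cause of these changes was not tested.

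The replicate numbers share only a number: deviations of same-numbered sections correlated at -0.249 over 13097 genes. The replicate block left 0 members called in each comparison, gave a median of -0.15 in striatum, and called 0 genes over the whole section, against 0 without it, and 44 against 8 in hippocampus. The crossed replicate block, chosen after seeing the data, called 11 genes over the whole section and no member. Over the whole section DESeq2 called 22 genes where edgeR called 0.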

Other observations

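Other lists of cell type markers were read between the diets beside the pathway. Over the whole section, the 10 genes of newly formed oligodendrocytes had a median log2 ratio of HF to MF of -0.03 with 7 under 0, and the 8 genes of oligodendrocyte precursors had -0.06 with 6 under 0, while all 18 genes of mature oligodendrocytes were under 0 with a median of -0.28. In hippocampus the medians were -0.16, -0.20 and -0.49 in the same order. edgeR called no gene of these 3 lists in either comparison. For the 11 neuronal markers the medians were 0.05 (whole section) and 0.04 (hippocampus), and for the 8 microglial markers -0.04 and -0.16.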
